A study of Saccharomyces cerevisiae with 10 samples.

Results

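GCN4, the transcriptional activator of amino acid synthesis in budding yeast, and 40 genes of 8 amino acid pathways were followed across ribosome footprint and mRNA libraries of strain 74D694. The genes were chosen by locus name, without use of their measured values, although earlier results of these data were known. They are the lysine (7), histidine (5), aromatic (9), serine (4), proline (3), glutamate and glutamine (4), asparagine and aspartate (3) and threonine (5) genes, 41 loci of the 6608 features counted. Marker genes and the branched-chain, arginine and sulfur pathways were left out. The lists are therefore not whole pathways, and further genes of the same pathways are read in a separate list below. All libraries came from cells grown at 30 °C to an OD600 between 0.6 and 0.8 and exposed to cycloheximide, a drug that halts elongating ribosomes on the mRNA. In rich medium (YPD), the prion-carrying [PSI+] state and its isogenic prion-free [psi-] state gave 2 footprint libraries and 1 mRNA library each. [PSI+] is the aggregated, inherited form of Sup35, the release factor eRF3. In YNB medium with CSM-U and 2% glucose, 2 footprint libraries of [PSI+] cells were set against 2 of [PSI+] cells overexpressing SUP35-Cter, the carboxy-terminal part of Sup35 that acts in termination and lacks the prion domain. The sources used here do not name the promoter or vector behind SUP35-Cter. The 10 samples form 6 groups.

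In yeast, amino acid starvation is sensed by the kinase Gcn2, which binds uncharged tRNA and phosphorylates the initiation factor eIF2. The GCN4 mRNA carries short upstream open reading frames in its leader that keep ribosomes from reaching the Gcn4 reading frame in fed cells, and phosphorylated eIF2 lets them pass. Gcn4 then binds the promoters of genes in many amino acid pathways, a response known as general amino acid control, while Lys14, Bas1 and Pho2 add control of particular pathways. YPD and CSM both supply amino acids.

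The YPD footprint libraries held 2497170 to 3579039 reads assigned to genes, and the mRNA libraries held 5494957 ([PSI+]) and 2480012 ([psi-]). SUP35 itself had footprint levels of 301 ± 6.97 CPM in [PSI+] and 639 ± 7.77 CPM in [psi-] (SD, n = 2 each), and its fall in [PSI+] (adjusted p = 0.00295, edgeR) became 0.0544 or 0.0521 without the first or the second [psi-] library. The [PSI+] footprint libraries stood further apart than the [psi-] ones: the larger level was a median 1.198 times the smaller over the genes described here and 1.22 times over all 5135 genes tested, against 1.03 and 1.07 times between the [psi-] libraries. Of the 38 members with reads, 7 differed by more than 1.5-fold between the [PSI+] libraries, beside 20.1% of all genes tested, and ARO4 differed most, by 2.47-fold. The share of cells carrying a state and the amount per cell cannot be told apart in these bulk libraries.

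Reads were found for 38 of the 41 genes. SER3 (YER081W), a phosphoglycerate dehydrogenase of serine synthesis, HOM2 (YDR158W), the aspartate semialdehyde dehydrogenase, and HOM6 (YJR139C), the homoserine dehydrogenase, had 0 reads in every YPD library, as had 715 of the 6608 features. A count of 0 allows 3 reads, which is 0.546 to 1.21 CPM (counts scaled to the library total) here. Among the 5897 protein-coding genes of the 6608 features, 310 had 0 reads in every library. The sources used here do not say how reads with several mapping places were handled. SER3, HOM2 and HOM6 are also absent from the authors' deposited table for YNB, so whether they were measured is not known. The limit of 3 reads holds only if they were, and no level is stated for these 3 genes. SER3 overlaps the noncoding gene SRG1 in the RefSeq annotation, and no other member overlaps an annotated gene. All 38 others passed the filter on low counts and were tested.

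In YPD, footprints of 11 of the 38 genes passed the test between [PSI+] and [psi-], 7 higher and 4 lower in [PSI+]. Over all 5135 genes tested 34.6% passed, 15.7% higher and 18.9% lower. Among the genes that passed, LYS4 had the largest change, with nearly 3 times the [psi-] level, and HIS1 followed. ARO1, ARO2, ARO7, PRO2 and ASN1 also rose, whereas LYS1, TRP2, SER33 and PRO3 fell. The median log2 fold change was 0.15 over the 38 genes and 0.02 over all genes tested. LYS4 and HIS1 were the 2 members that both passed and exceeded 2-fold, a pair of conditions met by 15.8% of all genes. Levels are given as CPM after TMM scaling, and each adjusted p is from edgeR's quasi-likelihood test over all genes with a threshold of 0.05. For 27 of the 38 genes the groups did not overlap, beside 72.8% of all genes tested. The replicates of both strains are biological per the deposited description. The [psi-] pair differed little beyond counting noise (a chi-square of 1.27 for each degree of freedom, against 19.35 or more between the [PSI+] libraries), and p reflects no spread beyond that of these 4 libraries. An SD of 2 values can lie below counting error, as in [psi-] for LYS4 (156 and 162 reads) and HIS1 (1224 and 1262 reads). Such an SD does not measure the spread between cultures.

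**Figure D1:**
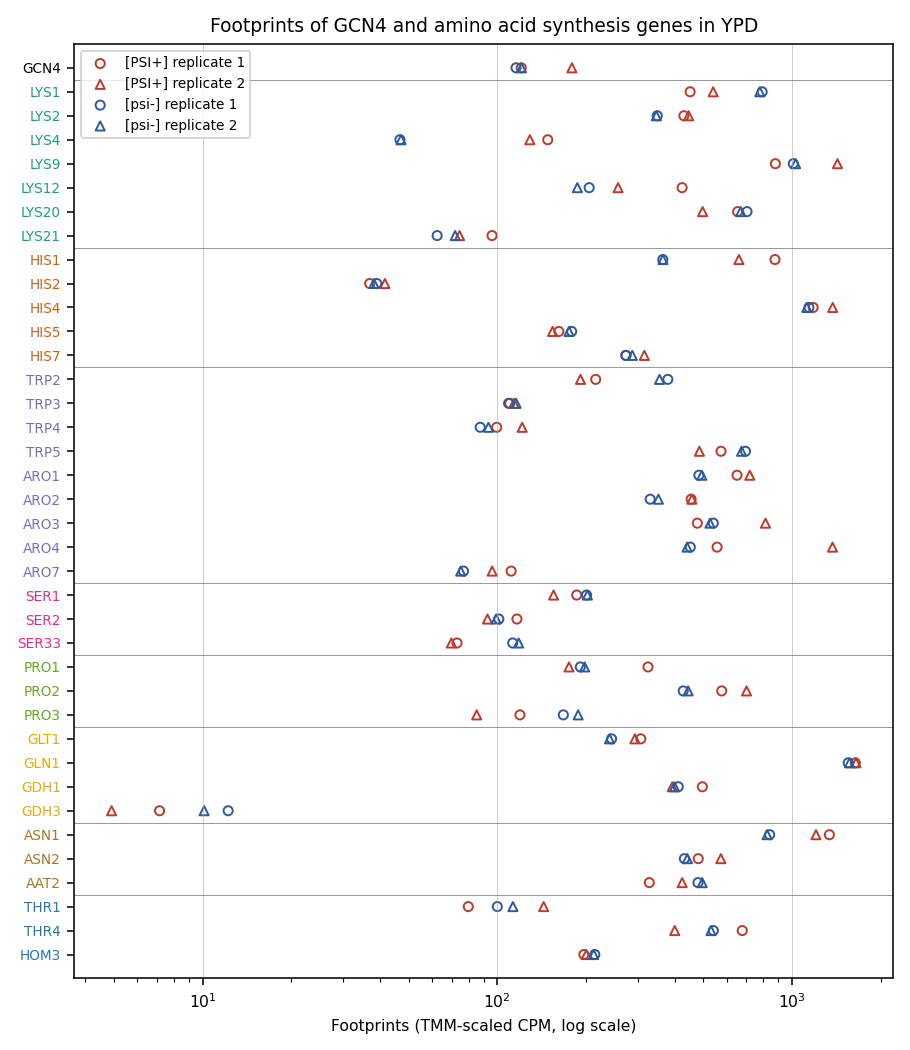
Footprint level of each of the 38 genes with reads in YPD (horizontal axis: TMM-scaled CPM on a log scale; vertical axis: genes, coloured by pathway). Each symbol is 1 library, red for [PSI+] and blue for [psi-], and the [psi-] symbols nearly coincide while the [PSI+] symbols of ARO4, at 557 and 1374 CPM, lie far apart.

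GCN4 (YEL009C) footprints were at 121 and 179 CPM in the [PSI+] libraries and 116 and 121 CPM in the [psi-] libraries. The second [PSI+] library was the highest of the 4, and the first lay within the range of the [psi-] pair. The means were 149.9 ± 41.4 CPM in [PSI+] and 118 ± 3.54 CPM in [psi-] (SD, n = 2 each), and the difference did not pass the test (log2 fold change 0.35, SE 0.20, adjusted p = 0.230, edgeR). The value was 0.60 without the first [PSI+] library and 0.04 without the second, so 1 library decided its size.

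In the lysine pathway, LYS4 (YDR234W) rose and LYS1 (YIR034C) fell. The first step, homocitrate synthase, has the isoenzymes Lys20 and Lys21. LYS20 (YDL182W) was at 654 and 498 CPM in the [PSI+] libraries and 704 and 670.3 CPM in the [psi-] libraries, and LYS21 (YDL131W) was at 96.0 and 74.4 CPM in the [PSI+] libraries and 62.5 and 71.9 CPM in the [psi-] libraries. Neither passed, with LYS20 lower in both [PSI+] libraries (log2 -0.26) and LYS21 higher in both (log2 0.33). LYS4, the homoaconitase that acts next, was at 148 and 129 CPM in the [PSI+] libraries and 46.7 and 47.1 CPM in the [psi-] libraries, so that both [PSI+] libraries were well above both [psi-] ones. Its means were 139 ± 13.7 CPM in [PSI+] and 46.9 ± 0.263 CPM in [psi-] (SD, n = 2 each), and it rose 2.95-fold (log2 fold change 1.56, SE 0.13, adjusted p = 0.00125, edgeR). LYS12 (YIL094C), the homoisocitrate dehydrogenase after Lys4, was at 424 and 257 CPM in the [PSI+] libraries and 205 and 187 CPM in the [psi-] libraries. Its [PSI+] libraries were both above the [psi-] ones but differed 1.65-fold from each other, and it did not pass (log2 fold change 0.79, SE 0.24, adjusted p = 0.0530, edgeR).

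The later lysine steps behaved differently from gene to gene. LYS2 (YBR115C), the aminoadipate reductase, was at 429.9 and 446 CPM in the [PSI+] libraries and 349 and 347 CPM in the [psi-] libraries and did not pass (log2 0.33, adjusted p = 0.0744, edgeR), although the groups did not overlap. LYS9 (YNR050C), the saccharopine dehydrogenase that forms saccharopine, was at 879 and 1428 CPM in the [PSI+] libraries and 1011 and 1029 CPM in the [psi-] libraries, so the [psi-] pair fell between the [PSI+] libraries (log2 0.18). LYS1, the saccharopine dehydrogenase that releases lysine in the last step, was at 451 and 540.4 CPM in the [PSI+] libraries and 792 and 778 CPM in the [psi-] libraries. Both [PSI+] libraries were below both [psi-] ones, and LYS1 fell from 785 ± 10.2 to 496 ± 63.0 CPM (SD, n = 2 each; log2 fold change -0.66, SE 0.14, adjusted p = 0.0194, edgeR). Of the 7 lysine genes 1 rose, 1 fell and 5 did not pass, with a median log2 of 0.33.

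Of the 5 histidine genes only HIS1 (YER055C) passed. HIS1 encodes the ATP phosphoribosyltransferase that opens the pathway. It was at 876 and 661 CPM in the [PSI+] libraries and 365 and 365 CPM in the [psi-] libraries, clear of overlap although the [PSI+] libraries differed. With means of 768 ± 152 CPM in [PSI+] and 365 ± 0.25 CPM in [psi-] (SD, n = 2 each), it rose 2.11-fold (log2 fold change 1.07, SE 0.17, adjusted p = 0.00812, edgeR). HIS4 (YCL030C), a multifunctional enzyme of early and late steps, was at 1181 and 1376 CPM in [PSI+] against 1142 and 1124 CPM in [psi-] and did not pass (log2 0.17). HIS7 (YBR248C), the imidazole glycerol phosphate synthase, HIS5 (YIL116W), the histidinol phosphate aminotransferase, and HIS2 (YFR025C), the histidinol phosphatase, had log2 values of 0.07, -0.16 and 0.03, none of which passed. The pathway median was 0.07.

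Among the 9 aromatic genes, 3 of the shikimate and chorismate steps rose and 1 tryptophan gene fell. The entry enzymes are the DAHP synthases Aro3, inhibited by phenylalanine, and Aro4, inhibited by tyrosine. ARO4 (YBR249C) was at 557 and 1374 CPM in the [PSI+] libraries and 452 and 441 CPM in the [psi-] libraries, and the second [PSI+] library alone was far above the rest. It did not pass (log2 fold change 1.11, SE 0.40, adjusted p = 0.0811, edgeR), nor did ARO3 (YDR035W), which was at 477 and 813 CPM in the [PSI+] libraries and 541 and 527 CPM in the [psi-] libraries and was also highest in that library. ARO1 (YDR127W), a single chain with 5 enzyme activities of the shikimate pathway, was at 651 and 719.5 CPM in the [PSI+] libraries and 483 and 495 CPM in the [psi-] libraries. ARO2 (YGL148W), the chorismate synthase, was at 455 and 458 CPM in the [PSI+] libraries and 330.3 and 352 CPM in the [psi-] libraries. In both genes the [PSI+] libraries were above the [psi-] ones and close to each other. ARO1 rose (log2 fold change 0.49, SE 0.13, adjusted p = 0.0344, edgeR), and so did ARO2 (log2 fold change 0.42, SE 0.12, adjusted p = 0.0422, edgeR). ARO7 (YPR060C), the chorismate mutase that leads to phenylalanine and tyrosine, was at 111 and 96.1 CPM in the [PSI+] libraries and 76.8 and 75.1 CPM in the [psi-] libraries and rose (log2 fold change 0.45, SE 0.13, adjusted p = 0.0472, edgeR).

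The tryptophan branch starts at anthranilate synthase, made of Trp2 and Trp3. TRP2 (YER090W) was at 216 and 192 CPM in the [PSI+] libraries and 379 and 355 CPM in the [psi-] libraries, with both [PSI+] libraries far below the [psi-] pair. It fell from 367 ± 16.8 to 204 ± 17.1 CPM (SD, n = 2 each; log2 fold change -0.85, SE 0.12, adjusted p = 0.00608, edgeR). Its partner TRP3 (YKL211C) was at 110.2 and 114 CPM in [PSI+] against 109 and 116 CPM in [psi-], with overlapping groups and a log2 of -0.01. TRP4 (YDR354W), the anthranilate phosphoribosyltransferase, and TRP5 (YGL026C), the tryptophan synthase, did not pass, with log2 values of 0.29 and -0.37. TRP5 was nevertheless lower in both [PSI+] libraries, at 575 and 485 CPM in [PSI+] against 696 and 675 CPM in [psi-].

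In serine synthesis SER33 (YIL074C) fell and the later steps did not pass. SER33, the phosphoglycerate dehydrogenase whose copy SER3 had no reads, was at 73.0 and 69.8 CPM in the [PSI+] libraries and 113 and 118 CPM in the [psi-] libraries. Its [PSI+] libraries agreed closely and lay below both [psi-] libraries, and the means were 71.4 ± 2.23 CPM in [PSI+] and 115 ± 3.80 CPM in [psi-] (SD, n = 2 each). It fell with a log2 fold change of -0.69, SE 0.12, adjusted p = 0.00971 (edgeR). SER1 (YOR184W), the phosphoserine aminotransferase, and SER2 (YGR208W), the phosphoserine phosphatase, had log2 values of -0.24 and 0.06.

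In proline synthesis consecutive enzymes moved in opposite directions. PRO2 (YOR323C), the glutamyl phosphate reductase of the second step, was at 578 and 702 CPM in the [PSI+] libraries and 428 and 444 CPM in the [psi-] libraries and rose (log2 fold change 0.55, SE 0.15, adjusted p = 0.0353, edgeR). PRO3 (YER023W), the pyrroline carboxylate reductase of the last step, was at 119 and 85.1 CPM in the [PSI+] libraries and 168 and 188 CPM in the [psi-] libraries and fell (log2 fold change -0.80, SE 0.19, adjusted p = 0.0243, edgeR). The groups of both genes were free of overlap. PRO1 (YDR300C), the glutamate kinase of the first step, was at 325 and 175 CPM in the [PSI+] libraries and 191 and 198 CPM in the [psi-] libraries, with the [psi-] pair between the [PSI+] libraries (log2 0.36).

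None of the 4 glutamate and glutamine genes passed edgeR's test, and 2 had an unadjusted p under 0.05; with DESeq2 0 passed. GLN1 (YPR035W), the glutamine synthetase, was at 1641 and 1650.0 CPM in the [PSI+] libraries and 1553 and 1568 CPM in the [psi-] libraries, all 4 within a narrow range (log2 0.08). GDH1 (YOR375C) and GDH3 (YAL062W) encode NADP-dependent glutamate dehydrogenases. GDH1 was at 497 and 393 CPM in the [PSI+] libraries and 411 and 399.6 CPM in the [psi-] libraries, with overlapping groups (log2 0.13). GDH3 rested on 16 and 15 reads in [PSI+] and 40 and 34 in [psi-], or 7.14 and 4.90 CPM in [PSI+] against 12.2 and 10.1 CPM in [psi-], and was lower in both [PSI+] libraries without passing (log2 fold change -0.91, SE 0.30, adjusted p = 0.0640, edgeR). GLT1 (YDL171C), the glutamate synthase, was at 307 and 293 CPM in [PSI+] against 244 and 240.4 CPM in [psi-], higher in both [PSI+] libraries, and did not pass (log2 fold change 0.31, SE 0.11, adjusted p = 0.0780, edgeR).

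Of the 3 asparagine and aspartate genes, ASN1 (YPR145W) rose. ASN1 and ASN2 (YGR124W) encode asparagine synthetases. ASN1 was at 1340.4 and 1207 CPM in the [PSI+] libraries and 840.4 and 824 CPM in the [psi-] libraries, with no overlap, and it rose (log2 fold change 0.61, SE 0.13, adjusted p = 0.0190, edgeR). ASN2 was at 481 and 574 CPM in the [PSI+] libraries and 432 and 442 CPM in the [psi-] libraries and did not pass (log2 0.27). AAT2 (YLR027C), the cytosolic aspartate aminotransferase, was at 328 and 424 CPM in [PSI+] against 480.0 and 496 CPM in [psi-] and did not pass (log2 -0.38), although both [PSI+] values were below the [psi-] pair.

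Of the threonine pathway genes with reads, none of 3 passed edgeR's test, 0 had an unadjusted p under 0.05, and 0 passed with DESeq2. HOM3 (YER052C), the aspartate kinase at the head of the pathway, was at 197 and 201 CPM in the [PSI+] libraries and 214 and 212 CPM in the [psi-] libraries (log2 -0.10). THR1 (YHR025W), the homoserine kinase, was at 79.7 and 144 CPM in the [PSI+] libraries and 99.99 and 113 CPM in the [psi-] libraries (log2 0.08). THR4 (YCR053W), the threonine synthase of the last step, was at 679 and 400.2 CPM in the [PSI+] libraries and 541 and 531 CPM in the [psi-] libraries (log2 0.01). For THR1 and THR4 the [psi-] values lay between [PSI+] libraries that differed 1.80-fold and 1.70-fold, and in opposite order, while the [PSI+] pair of HOM3 nearly coincided.

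**Figure D2:**
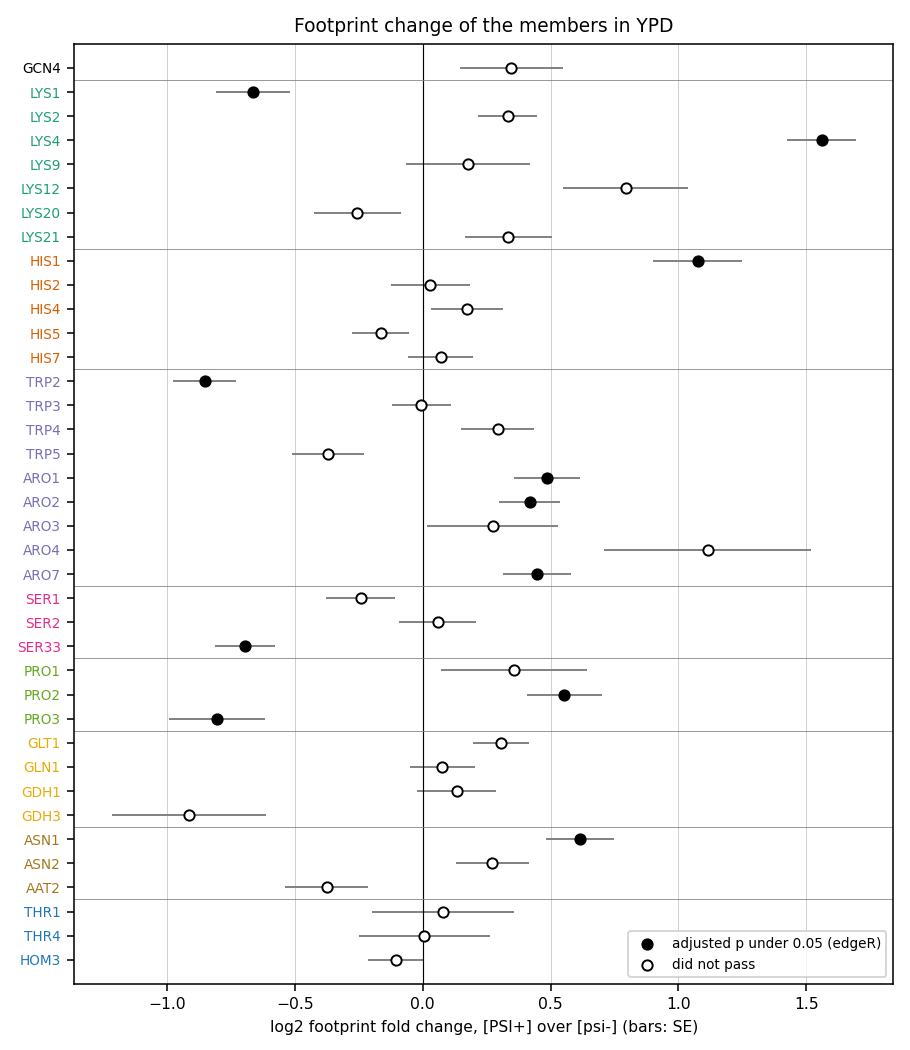
Footprint log2 fold change of the 38 tested genes, [PSI+] over [psi-] in YPD (horizontal axis; bars are the SE of the edgeR fit; genes on the vertical axis, grouped by pathway). Filled circles mark the 11 genes with an adjusted p under 0.05, from LYS4 at 1.56 down to TRP2 at -0.85, and the lysine and proline pathways each have 1 filled circle on either side of 0.

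The alternative fits of these 11 calls included the 4 [PSI+] columns as separate libraries, chosen after seeing the data, which adds no weight. Others left 1 library in a group, which the fit takes to vary like the other group. Of the 11 calls, the 1 for LYS4 held in all 11 alternative fits (log2 1.39 to 1.71). The other 10 were lost when either [psi-] library was left out or both were summed. The share of all genes called also fell in these fits, from 34.6% to 9.75% without the first, 9.47% without the second and 10.2% with both summed. For these 10 calls the largest adjusted p in any alternative lay between 0.106 for TRP2 and 0.506 for ARO2 (edgeR or DESeq2). ARO1, ARO2, ARO7, PRO2 and ASN1 were also lost with DESeq2 and with no filter on low counts, where the split was 3 higher and 5 lower and 2 higher and 7 lower. Of all genes, 20.2% passed with DESeq2 and 26.3% with no filter. DESeq2 called ARO4 higher (adjusted p = 0.0232) and TRP5 lower (adjusted p = 0.0491) in addition, and edgeR with no filter called TRP5, GDH3 and AAT2 lower (adjusted p = 0.0317, 0.0499 and 0.0443). Those fits moved the median log2 of the same 5135 genes from 0.02 to -0.15.

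The mRNA libraries, 1 per strain, allow no test of their own, and their ratios are given relative to the all-gene median log2 of -0.41 over 5213 genes. Among the 38 members, the [PSI+] over [psi-] ratio was more than 2-fold above that of the median gene for 7 and more than 2-fold below it for 6. The same bounds were passed by 21.7% and 22.2% of all genes. The members' median was -0.08 after this centring, with 17 above and 21 below 0. The histidine gene HIS1 stood highest, with 10090 reads in [PSI+] and 799 in [psi-], or 2.93, 95% counting interval 2.82 to 3.03 on the centred log2 scale. LYS12 was next with 9910 reads in [PSI+] and 819 in [psi-] (2.86, 95% counting interval 2.76 to 2.97), followed by ARO7 with 853 reads in [PSI+] and 114 in [psi-] (2.17). For all 3 the mRNA log2 exceeded the footprint log2, which was 1.07, 0.79 and 0.45. LYS9, SER2, ARO4 and HIS7 made up the rest of the 7, with centred log2 values of 1.97, 1.82, 1.56 and 1.205.

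At the other end, TRP2 mRNA had 117 reads in [PSI+] and 350 in [psi-] (-2.31, 95% counting interval -2.63 to -2.01 on the centred log2 scale), and TRP2 footprints also fell. HOM3 mRNA had 39 reads in [PSI+] and 108 in [psi-] (-2.20) and THR4 mRNA 74 reads in [PSI+] and 151 in [psi-] (-1.76). GCN4 mRNA had 582 reads in [PSI+] and 856 in [psi-], or 106 and 345 CPM of the library totals, which is -1.29, 95% counting interval -1.44 to -1.14 on the centred log2 scale. For these 3 genes the mRNA was lower in the [PSI+] library while the footprint log2 values were -0.10, 0.01 and 0.35. THR1, at 14 reads in [PSI+] and 19 in [psi-] (-1.17, 95% counting interval -2.28 to -0.10), and TRP5 (-1.02) completed the 6. The counting intervals are exact and cover counting error only, not the spread between cultures.

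**Figure D3:**
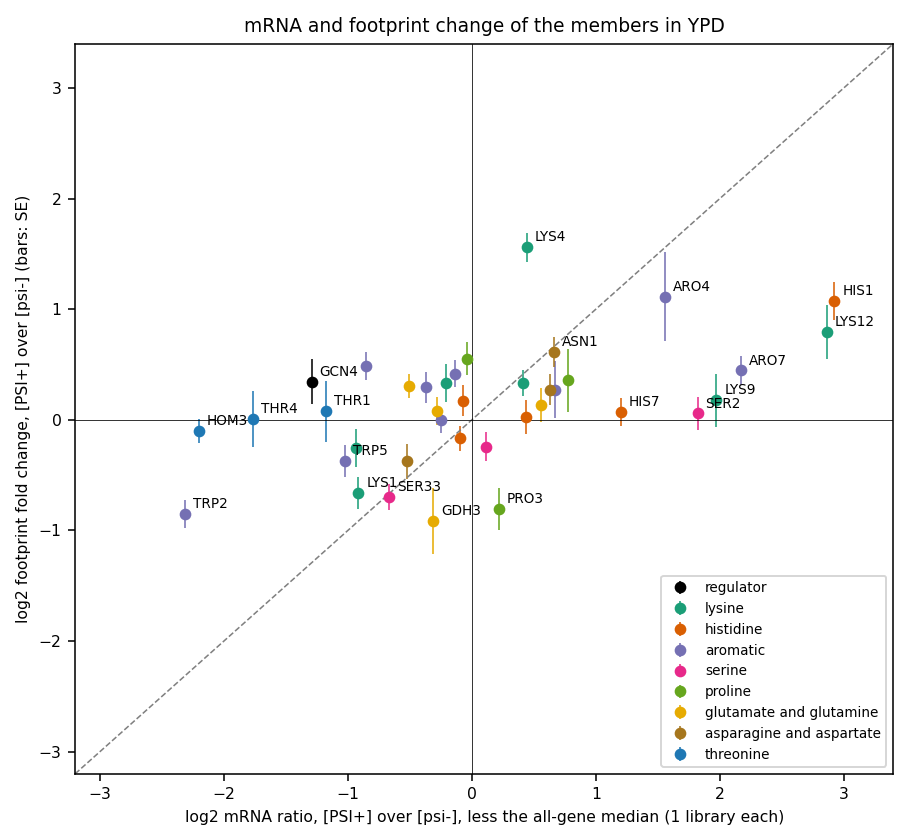
mRNA ratio (horizontal axis: log2 [PSI+] over [psi-] less the all-gene median, 1 library each) against footprint fold change (vertical axis: log2 [PSI+] over [psi-], bars are SE) for the 38 genes, coloured by pathway; the dashed line marks equal change. The mRNA values run from -2.31 to 2.93 and the footprint values from -0.91 to 1.56, so HIS1, LYS12, ARO7 and LYS9 lie below the line and GCN4, HOM3, THR4 and TRP2 above it.

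Translational efficiency, the footprint change relative to the mRNA change, was tested in edgeR as an interaction term between strain and type of library, with each lone mRNA library assumed to vary like the footprint libraries. The spread of the mRNA libraries was not measured, so each p and SE below holds under that assumption only. It passed for 13 of the 38 genes, 7 higher and 6 lower in [PSI+], and for 38.4% of all 5437 genes tested, 17.9% higher and 20.5% lower. With upper-quartile scaling 11 were higher and 6 lower, 40.6% of all genes passed, and the median over all genes moved from 0.02 to 0.29. The members' median was 0.05. GCN4 passed as higher (log2 1.63, SE 0.35, adjusted p = 0.0193, edgeR). Its log2 stayed between 1.30 and 1.89 in all 9 alternative fits, each of which it passed, with adjusted p up to 0.0472 (edgeR). In every one of these fits the value rests on the same lone mRNA library of each strain, and GCN4 mRNA was lower in that of [PSI+].

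HOM3 had the highest translational efficiency log2 among those that passed (log2 2.06, SE 0.23, adjusted p = 0.00389, edgeR). TRP2 passed as higher as well (log2 1.44, SE 0.22, adjusted p = 0.00778, edgeR), so that the fall of its footprints was smaller than the difference in its mRNA. THR4, ARO1, LYS4 and GLT1 passed as higher, at log2 1.75, 1.33, 1.11 and 0.81. LYS12 was lowest (log2 -2.08, SE 0.43, adjusted p = 0.0168, edgeR). HIS1, whose footprints rose, passed as lower (log2 -1.86, SE 0.29, adjusted p = 0.00810, edgeR). LYS9, SER2, ARO7 and HIS7 also passed as lower, at log2 -1.80, -1.77, -1.72 and -1.14. By pathway, 2 of 3 threonine genes passed as higher and 2 of 5 histidine genes as lower, while proline and the asparagine and aspartate group had 0 calls (edgeR, 1 and 0 at an unadjusted p under 0.05; no other tool was run on this comparison). Without the first [psi-] library 7 of the 13 calls were kept and 18.3% of all genes passed, and without the second 18.1% of all genes passed and 6 calls were kept, namely ARO7, GCN4, HIS1, HOM3, LYS12 and SER2.

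Within a strain, footprints per mRNA read were set relative to the median of 4557 genes with at least 10 reads in every library. The members' median was log2 0.24 in [psi-] and 0.15 in [PSI+], and the SD over members was 1.72 and 2.23, beside 1.99 and 1.89 over all genes. In each strain 8 of the 38 members lay more than 4-fold above the median gene, as did 14.5% of genes in [psi-] and 16% in [PSI+]. More than 4-fold below it lay 1 member in [psi-] (GLT1) and 3 in [PSI+] (LYS9, LYS12 and GDH3), beside 14.5% and 11.2% of all genes. LYS1, LYS20, PRO2, THR1, THR4, HOM3 and AAT2 were among the 8 in both strains, joined by ARO4 in [psi-] and TRP2 in [PSI+]. The mRNA counts of the 7 high in both strains were low, between 14 and 349 reads. LYS1 was at log2 4.49 in [psi-] and 4.998 in [PSI+], the highest value in [psi-], and THR1 was highest in [PSI+], at 5.33 against 3.89.

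GCN4 was at log2 -1.48 and -1.42 in the [psi-] libraries and 0.13 and 0.70 in the [PSI+] libraries. It thus had 0.366 times the footprints per mRNA read of the median gene in [psi-] and 1.34 times in [PSI+]. The plot of footprints per mRNA read shows this as the blue and red symbols on opposite sides of 0, a crossing in the same direction as that of ARO1, at -1.37 and 0.24 and LYS4, at -0.41 and 0.97. HIS1, HIS7, ARO7 and SER2 crossed the other way, HIS1 from 0.28 to -1.32. The libraries of a strain share 1 mRNA library, so their spread holds none of its error.

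**Figure D4:**
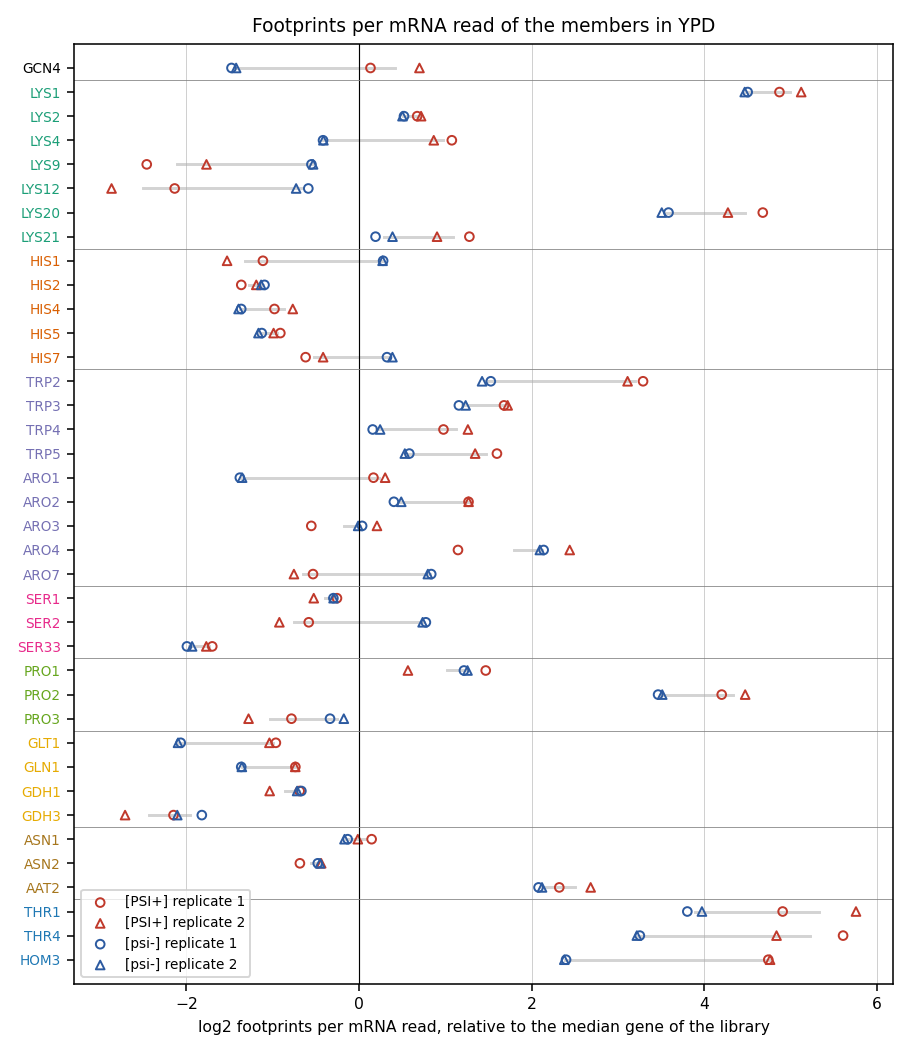
Footprints per mRNA read of the 38 genes (horizontal axis: log2 relative to the median gene of the library; vertical axis: genes by pathway), with 1 symbol per footprint library, red for [PSI+] and blue for [psi-], and grey bars joining the strain means. GCN4 lies at -1.45 in [psi-] and 0.42 in [PSI+], and the 3 threonine genes lie above 2 in both strains.

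Several steps are encoded by gene copies, and the division of footprints between copies differed in size from pair to pair. LYS20 supplied 87.3% and 87.1% of the LYS20 and LYS21 reads in the [PSI+] footprint libraries and 91.9% and 90.3% in the [psi-] ones, with exact 95% intervals between 85.5% and 92.9%. In mRNA its share was much lower, 39.4% in [PSI+] and 51.8% in [psi-]. ASN1 supplied 73.6% and 67.8% of the ASN1 and ASN2 footprints in [PSI+], against 66.1% and 65.1% in [psi-], and 61.1% and 60.5% of their mRNA reads. GDH1 supplied 98.7% and 98.9% of the GDH1 and GDH3 footprints in [PSI+] and 97.2% and 97.6% in [psi-]. ARO4 supplied 53.9% and 62.8% of the ARO3 and ARO4 footprints in [PSI+], above the 45.5% of both [psi-] libraries, and 26.4% and 16.3% of the mRNA in [PSI+] and [psi-]. The exact 95% interval of the second [PSI+] library for ASN1, 66.6% to 69.0%, overlapped that of the first [psi-] library, 64.6% to 67.5%. The shares have no test, and stretches that are alike between copies leave the division of reads uncertain.

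In YNB, the comparison of [PSI+] cells with and without SUP35-Cter is known through the authors' deposited table, which holds a mean per condition and no value per library. The authors' deposited table lists SUP35 itself at 6207 in [PSI+] and 20432 with SUP35-Cter, a log2 of 1.72 with an adjusted p of 0.00529. In the authors' deposited table, 0 of the 38 listed members fell below an adjusted p of 0.05 (DESeq, with 1 below 0.05 unadjusted), beside 1.32% of all 6190 features. Unadjusted, 470 of the 6190 features fell below 0.05 (DESeq). The median log2 ratio of the authors' deposited means, with 0.5 added to each, was -0.19 over the members and -0.02 over all 5566 genes with a mean of 10 or more. Of the members 12 were above 0 and 26 below, and the same split was not taken over all genes.

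Grouped by pathway, 6 of the 7 lysine genes were above 0 in the authors' deposited table (median log2 0.47), with LYS9 at 6438 in [PSI+] and 11808 with SUP35-Cter and LYS4 at 3083 in [PSI+] and 5068 with SUP35-Cter, log2 0.88 and 0.72. All 5 histidine genes were below 0, between -0.46 and -0.29, and all 3 asparagine and aspartate genes lay between -0.60 and -0.47. GDH1 was lowest, at 61099.5 in [PSI+] and 28260.3 with SUP35-Cter in the authors' deposited table, a log2 of -1.11 with an unadjusted p of 0.0498 and an adjusted p of 0.657. GCN4 stood at 5660.3 in [PSI+] and 5191 with SUP35-Cter in the authors' deposited table (log2 -0.12, adjusted p = 1). Without values per library, the spread behind these differences is not known, and none passed the authors' test.

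Per kilobase of coding length in RefSeq R64, the assembly also named sacCer3, the [PSI+] means of the authors' deposited table put 15 of the 38 members above the 90th percentile of 5671 protein-coding genes. The members' median percentile was 86.8. GLN1 was highest at 98.9, then GDH1 at 98.4, ASN1 at 96.8, HIS1 at 96.7 and HIS4 at 96.5. GCN4 was at 86.1, and LYS4, the member with the largest footprint change between the strains in YPD, at 56.8. GDH3 was lowest at 41.5. These levels are of another medium, build and table than those in YPD and were not compared with them.

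**Figure D5:**
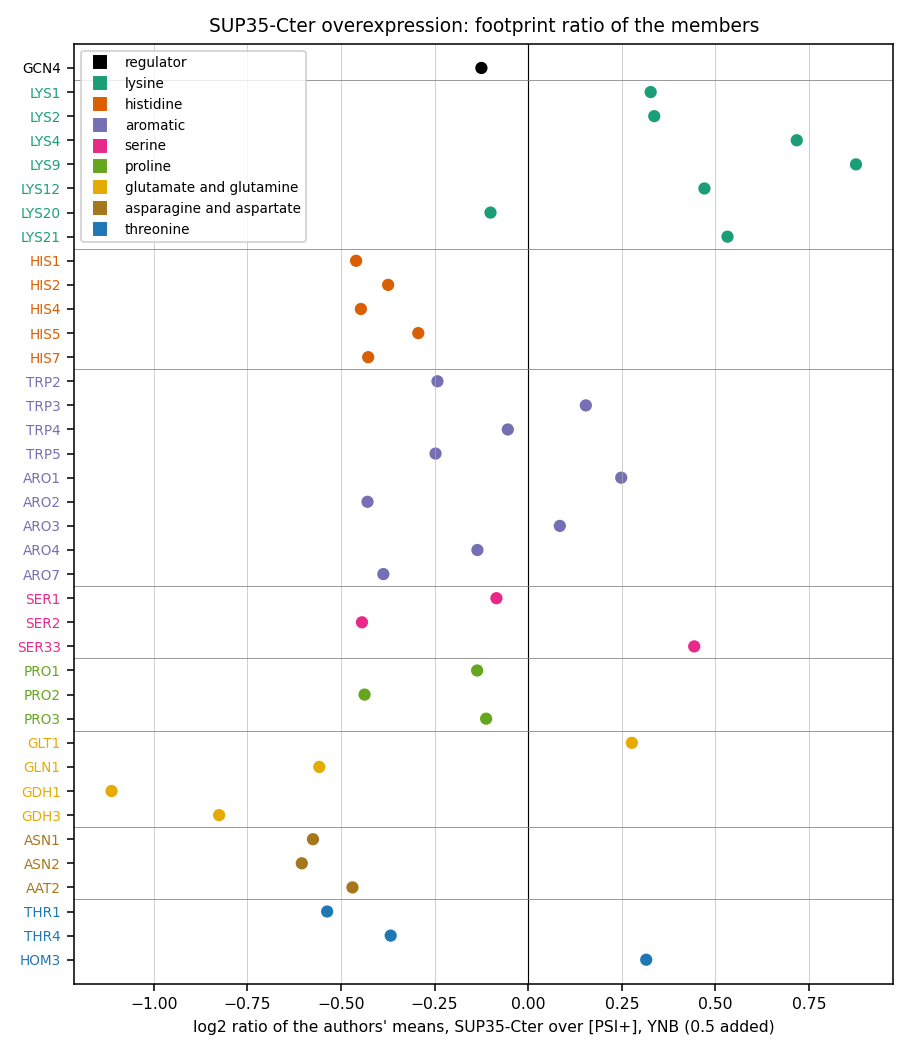
Ratio of the authors' mean footprint signal with SUP35-Cter to that of [PSI+] cells in YNB (horizontal axis: log2 with 0.5 added to each mean; vertical axis: genes, coloured by pathway), with 1 point per gene and no error available. The lysine genes reach 0.88 (LYS9), the histidine genes lie near -0.4, and GDH1 is lowest at -1.11.

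The genes that set Gcn4 synthesis were also read in YPD. Of 9, GCN20 had 0 reads, and of the 8 tested 2 rose, 2 fell and 4 did not pass (median log2 0.08). Over all 5135 genes tested 15.7% rose and 18.9% fell. GCD2 and GCD6 encode subunits of eIF2B, the factor that recharges eIF2. GCD2 was at 307 ± 17.0 CPM in [PSI+] and 180.4 ± 10.4 CPM in [psi-] (SD, n = 2 each) and rose (log2 0.77, SE 0.12, adjusted p = 0.00742, edgeR), and GCD6 was at 339 ± 9.53 CPM in [PSI+] and 239.7 ± 2.24 CPM in [psi-] (SD, n = 2 each) and rose (log2 0.50, SE 0.11, adjusted p = 0.0198, edgeR). GCD1, another eIF2B subunit, fell (log2 -0.43, SE 0.13, adjusted p = 0.0469, edgeR). GCN3 and GCD7 of the same list did not pass (log2 -0.36 and -0.06, adjusted p = 0.221 and 0.736, edgeR). YIH1, an inhibitor of Gcn2 activation, was at 19.3 ± 2.07 CPM in [PSI+] and 46.8 ± 2.43 CPM in [psi-] (SD, n = 2 each) and fell most (log2 -1.27, SE 0.17, adjusted p = 0.00524, edgeR). GCN2 itself did not pass (log2 0.45, SE 0.17, adjusted p = 0.0863, edgeR). Of these calls only that of YIH1 held without either [psi-] library (adjusted p = 0.0474 and 0.0355, edgeR).

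Of the 3 pathway regulators 1 passed, beside 34.6% of all genes tested. LYS14, the activator of the lysine genes, was at 56.9 ± 1.36 CPM in [PSI+] and 30.9 ± 0.440 CPM in [psi-] (SD, n = 2 each) and rose (log2 0.88, SE 0.14, adjusted p = 0.00826, edgeR), a call lost without the first or second [psi-] library (adjusted p = 0.103 and 0.113, edgeR). BAS1 and PHO2, which act together on histidine and purine genes, had log2 values of 0.55 and 0.06 and did not pass. A list of 10 further genes of the same pathways was read beside all genes tested, of which 15.7% rose and 18.9% fell. Of these 10 genes 5 rose and the other 5 did not pass (edgeR, median log2 0.41). They are SHM1, the mitochondrial serine hydroxymethyltransferase (log2 0.98, SE 0.14, adjusted p = 0.00638, edgeR), AAT1, the mitochondrial aspartate aminotransferase (log2 0.92), PHA2, the prephenate dehydratase (log2 0.79), ARO9, an aromatic aminotransferase (log2 0.61), and GLY1, the threonine aldolase (log2 0.56). All 5 calls were lost without either [psi-] library.

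The authors' deposited table for YPD, which keeps genes with an adjusted p under 0.1, lists 11 of the 41 members and 27.1% of all features. In the authors' deposited table, 3 members are higher in [PSI+] (LYS4, HIS1 and ASN1) and 8 lower (LYS1, LYS20, TRP2, TRP5, SER33, PRO3, GDH3 and AAT2). It shares 7 genes with the 11 called here, all in the same direction. Both rest on the same YPD footprint experiment, so this match is not independent. The authors' log2 values are of [psi-] over [PSI+], and their sign was reversed here. After that reversal, the authors' value was below the one here for each listed member, for example 1.40 against 1.56 for LYS4 and -0.83 against -0.66 for LYS1. The DESeq2 fit here gave 1.39 for LYS4 and -0.84 for LYS1. The cause of the shift was not tested.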

How the data were processed

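Gene-level footprint and mRNA values of yeast 74D694 were used as the authors deposited them. For YPD, Bowtie 0.12.7, HTSeq 0.5.3p3, DESeq 1.6.1 and sacCer2 are named, per the submitters' processing notes. The deposited counts are whole reads per gene with 1 added to each by the authors, as the minimum of 1 in every column shows; reads are given after taking it off. The authors' YPD table gives a log2 fold change of [psi-] over [PSI+] and an adjusted p-value, per the deposited description. The sign of that fold change was reversed here. For YNB, the notes name cutadapt 1.2.1, Bowtie2, HTSeq, DESeq and sacCer3. The authors' YNB table holds a mean signal per condition, counts divided by DESeq size factors, and p-values, per the file headers. Counts per YNB library were not analysed here, and the authors' p-values stand in for the planned count test. Libraries were made with a directional kit, per the labels' protocols, which do not state strand use in counting.

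All 8 count columns belong to samples (0 without one). The 4 [PSI+] footprint columns are runs of 2 biological replicates per the deposited description. Columns were paired where they differed by no more than sampling noise (chi-square divided by its degrees of freedom, 1.01 and 1.00, against 19.35 or more for other pairings) and summed, so these libraries carry 2 added counts per gene and their replicate number is only a name. The [psi-] libraries, at 1.27, were kept as n = 2. Groups came from the sample titles.

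Counts were fitted with edgeR 4.0.16 in R 4.3.3 (filterByExpr at a minimum count of 10, TMM factors, glmQLFit, glmQLFTest, Benjamini-Hochberg adjustment over all genes, threshold 0.05), and the SE is the size of the log2 fold change divided by the square root of F. mRNA ratios used library totals, at least 20 reads over both libraries and exact 95% intervals; intervals and the 3-read limit cover counting error only. DESeq2 1.42.0, other scaling, no filter, subtraction of the added 1, a summed [psi-] pair and leaving out each library were the alternatives. The fits were tested on simulated data in which every library had the same spread. Fits to libraries with unequal spread, as in the [PSI+] and [psi-] pairs, were not tested. NCBI RefSeq R64 matched 5908 of the 6608 and 5677 of the 6190 features, all 41 members among them. No coordinates or sequences are printed. The genes, lists and tests were chosen with earlier results of these data known. Named with all values are GCN4, the genes that passed, the largest change of each pathway and gene copies; other genes are given by value or count.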

Additional observations from a re-analysis of the deposited data

How the results depend on the processing

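Of the 11 footprint calls, 11 were kept with RLE or upper-quartile factors and with the added 1 subtracted. Upper-quartile factors gave 14 calls with 10 higher, and 39.2% of all genes were called. A fit chosen after seeing the data took the 4 [PSI+] columns as separate libraries and gave 16 calls, with 47.8% of all genes called. It treats runs of 2 libraries as replicates, so its calls add no weight to the 11. DESeq2 gave 8 calls with 3 higher, and 20.2% of all genes were called. No filter on low counts gave 2 higher and 7 lower, and 26.3% of all genes were called. Each kept the same 6 of the 11 (HIS1, LYS1, LYS4, PRO3, SER33 and TRP2) and called genes not among the 11. Those were ARO4 and TRP5 with DESeq2 and TRP5, GDH3 and AAT2 with no filter. Summing the [psi-] libraries left 1 call, 1 higher and 0 lower (edgeR, 3 lower at an unadjusted p under 0.05; DESeq2 was not run on the sum). Leaving out 1 library at a time gave 1 to 30 footprint calls, 1 to 19 higher and 0 to 11 lower: 1 call without either [psi-] library (9.75% and 9.47% of all genes called), 30 without [PSI+] replicate 1 (65% of all genes) and 26 without [PSI+] replicate 2 (59.5%). The swing thus runs over all genes, of which 34.6% were called with every library. The fit then takes the lone library to vary like the other group. Values that turned are LYS9 (-0.20 without [PSI+] replicate 2, 0.48 without replicate 1), ARO3 (-0.15 and 0.61), THR1 (-0.40 and 0.43) and THR4 (0.35 and -0.42). A further 26 footprint values of 10 genes and 12 translational efficiency values of 6 genes changed sign without passing in either fit. Upper-quartile factors moved the all-gene footprint median from 0.02 to 0.17.

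RLE factors moved the all-gene median of translational efficiency from 0.02 to 0.13 with 13 calls kept. Translational efficiency gave 11 higher calls with upper-quartile factors, where 40.6% of all genes were called. Fewer members and fewer of all genes were called when the [psi-] libraries were summed. Leaving out 1 library at a time gave 6 to 27 calls, 2 to 15 higher and 4 to 12 lower, while 18.1% to 62.1% of all genes passed. The medians of the mRNA ratio, the YNB ratio and footprints per mRNA read moved by less than the error set for them or not at all under the alternatives run. That error holds no spread between mRNA or YNB cultures, which was not measured, so these medians are not shown to be stable. Where the text gives no cause for a change, the cause was not tested. No paired analysis was possible because the [PSI+] footprint columns carry no replicate number that matches the labels. The planned search for the Gcn4 motif in promoters was not run, since no promoter sequence was at hand. The mRNA comparison rests on 1 library per strain, and YNB depth is unknown.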
